A study of Homo sapiens with 9 samples.

Results

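The genes described here are the interferon-stimulated genes, the transcription factors and RNA sensors of the interferon response, the class I antigen presentation genes and a small set of NF-kB genes of LNCaP cells, a human androgen-responsive prostate cancer line, treated with recombinant NRG1. They were taken by name from the deposited read counts, with the condition of at least 10 counts in 3 or more of the 9 libraries. Of 43 listed genes, 42 were found among the 37351 genes with counts and 40 met this condition. IFI44L (6 reads in all 9 libraries together) and OAS2 (11 reads) did not meet it, and XAF1 was not analysed here. All 40 were among the 19250 genes tested. They fall into 18 interferon-stimulated effectors, 7 IRF and STAT factors, 2 RNA sensors, 8 class I genes and 5 NF-kB genes.

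The cells had been held in medium without serum and calcium for 6-12 h and then received 15 ng/mL NRG1, a growth factor that binds HER3. RNA was taken 0, 12 and 24 h later, in 3 libraries per time. The 9 libraries hold no cells grown for 12 or 24 h in the absence of NRG1, so NRG1 and time in this medium cannot be told apart in any comparison with 0 h. The libraries come from wells of 1 cell line, and the p-values measure the spread between these wells.

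Type I and type III interferons signal through JAK1 and TYK2 to a complex of STAT proteins and IRF9, which binds the interferon-stimulated response element (ISRE) of target promoters, whereas interferon gamma signals through JAK1 and JAK2 to STAT dimers, which bind gamma-activated sites (GAS). Class I molecules, made of a heavy chain (HLA-B, HLA-C and others) and B2M, are loaded with peptides that the transporter of TAP1 and TAP2 carries into the endoplasmic reticulum, and show them to cytotoxic T cells. The class I genes carry interferon and NF-kB elements and are activated by NLRC5. NF-kB dimers are held in the cytoplasm by inhibitors such as NFKBIA, and several NF-kB genes, NFKBIA among them, are themselves NF-kB targets.

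RefSeq promoters (GRCh38.p14, from 250 bases before to 50 bases after the start site) were matched for 32 of the 40 genes and searched on both strands for the ISRE (GAAA, any 2 bases and GAAA), the GAS (TTCNNNGAA) and the kappaB consensus. IFIT2, IFITM2, IRF2, IRF3, IRF7, HLA-E, NLRC5 and RELB had no match. The ISRE letters were found in 13 of 16 effector promoters, 4 of 6 class I promoters and 1 of 2 RNA sensor promoters, and in 0 of 4 promoters each of the factors and of the NF-kB genes, compared with 3.65% of 27305 RefSeq promoters. The kappaB consensus was found in 5 of 6 class I, 3 of 4 NF-kB, 2 of 2 RNA sensor, 3 of 16 effector and 1 of 4 factor promoters, against 5.72% of all promoters. The GAS letters were found in 7 of the 32 promoters (5 effectors and 2 factors), against 7.88%. STAT2, STAT3, RSAD2 and NFKB2 held none of the 3 motifs in this window. A match describes letters only and does not show that a factor was bound.

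Stretches of 6 promoters are shown because they contrast an effector whose level stayed within its replicate spread (ISG15), the effector that rose (ISG20), a class I gene that rose (HLA-B) and one that fell (B2M), and NF-kB genes that moved in opposite directions (NFKB1 and NFKBIA). Each line gives the 150 bases from 184 to 35 bases before the start site, 5′ to 3′ on the strand of the gene, with matches in capitals. The capitals of ISG15 at chr1:1013313-1013462 (plus strand) are 2 overlapping ISRE matches, and those of ISG20 at chr15:88638832-88638981 (plus strand) are 1 ISRE match. In HLA-B at chr6:31357214-31357363 (minus strand) they are 2 overlapping kappaB matches, and in B2M at chr15:44711333-44711482 (plus strand) they are 2 overlapping ISRE matches followed by a kappaB match. NFKB1 at chr4:102501175-102501324 (plus strand) and NFKBIA at chr14:35404784-35404933 (minus strand) each hold 1 kappaB match.
ISG15: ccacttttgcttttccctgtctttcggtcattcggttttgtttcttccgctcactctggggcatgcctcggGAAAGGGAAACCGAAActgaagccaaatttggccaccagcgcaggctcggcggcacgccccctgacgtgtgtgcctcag
ISG20: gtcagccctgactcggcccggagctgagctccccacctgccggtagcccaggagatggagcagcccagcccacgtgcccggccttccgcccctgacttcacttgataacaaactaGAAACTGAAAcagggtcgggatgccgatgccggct
HLA-B: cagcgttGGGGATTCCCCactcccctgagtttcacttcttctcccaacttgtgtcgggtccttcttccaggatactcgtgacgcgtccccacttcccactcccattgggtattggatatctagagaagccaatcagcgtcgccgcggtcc
B2M: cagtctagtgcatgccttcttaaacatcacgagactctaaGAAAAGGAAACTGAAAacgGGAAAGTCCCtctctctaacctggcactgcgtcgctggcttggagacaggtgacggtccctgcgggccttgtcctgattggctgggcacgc
NFKB1: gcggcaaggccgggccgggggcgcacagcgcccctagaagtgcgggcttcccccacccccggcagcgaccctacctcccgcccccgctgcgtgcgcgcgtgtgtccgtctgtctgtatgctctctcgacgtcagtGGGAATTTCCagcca
NFKBIA: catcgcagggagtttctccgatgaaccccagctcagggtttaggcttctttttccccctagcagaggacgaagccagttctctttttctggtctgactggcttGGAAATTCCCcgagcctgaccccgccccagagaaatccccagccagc

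Total counts per library ranged from 47016302 to 60985825, with a mean of 59340000 at 0 h against 52040000 and 50990000 later. Levels are given as CPM, that is, read counts relative to the scaled library total. The cells had the profile of their label: all 10 luminal prostate markers, KLK3, KLK2 and FOLH1 among them, had over 1000 reads, and their summed level was 4867 CPM at 0 h, 4956 CPM at 12 h and 4650 CPM at 24 h (means, n = 3 each). Of 10 immune markers, 8 had any read, and their sum was at most 0.662 CPM in any library. Over the 9 libraries CD68 had 101 reads and NKG7 82, compared with 10 of PTPRC and 3 of CD3E. The 8 fibroblast markers summed to means of 26.9, 25.7 and 26.7 CPM, mostly from COL1A1 (24.6, 22.4 and 22.8 CPM), with 1 read of COL1A2 and 11 of DCN. Within this level sum, COL3A1 rose from 0.567 CPM to 1.13 and 1.43 CPM (log2 fold changes of 0.98 and 1.32, edgeR adjusted p 0.009 and 0.00032). LUM rose at 24 h (0.56, edgeR adjusted p 0.0479), from 1.03 to 1.52 CPM. The 5 endothelial markers summed to 13.5, 9.05 and 7.66 CPM, nearly all from VWF, with 135 reads of EMCN and 5 of PECAM1. The part of these marker changes in the results was not tested. Because RNA was measured in whole wells, a lower level may stand for fewer expressing cells or for less RNA per cell, which cannot be told apart.

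A gene passed the test with an edgeR quasi-likelihood adjusted p of at most 0.05, and passed both thresholds where its fold change was also at least 1.5. At 12 h against 0 h, 18.7% of all tested genes passed the test, 10.6% higher and 8.16% lower. Of the 40 genes described here 8 passed (20%), 6 higher and 2 lower. At 24 h against 0 h, 21.1% of all tested genes passed, 11.6% higher and 9.48% lower, compared with 12 of the 40 (30%), 8 higher and 4 lower. Both thresholds were passed by 1 of the 40 genes in each comparison, NLRC5, which was higher at both times. The background of both thresholds was 2.37% at 12 h (0.992% higher and 1.38% lower) and 3.31% at 24 h (1.53% higher and 1.78% lower). Between 12 and 24 h, 6.08% of all tested genes passed the test (3.03% higher and 3.05% lower) and 1 of the 40, B2M, which was lower. Both thresholds were passed there by 0.452% of all tested genes (0.249% higher and 0.203% lower) and by 0 of the 40 with edgeR and 0 with DESeq2. A joint F test over the 3 times called 11 of the 40, against 25.1% of all tested genes. By group, 1 of 18 effectors, 1 of 7 factors, 0 of 2 sensors (edgeR and DESeq2, 1 at an unadjusted p under 0.05), 6 of 8 class I genes and 4 of 5 NF-kB genes passed at 24 h against 0 h. The comparisons at 12 h and at 24 h share the 0 h libraries and are given side by side.

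**Figure D1:**
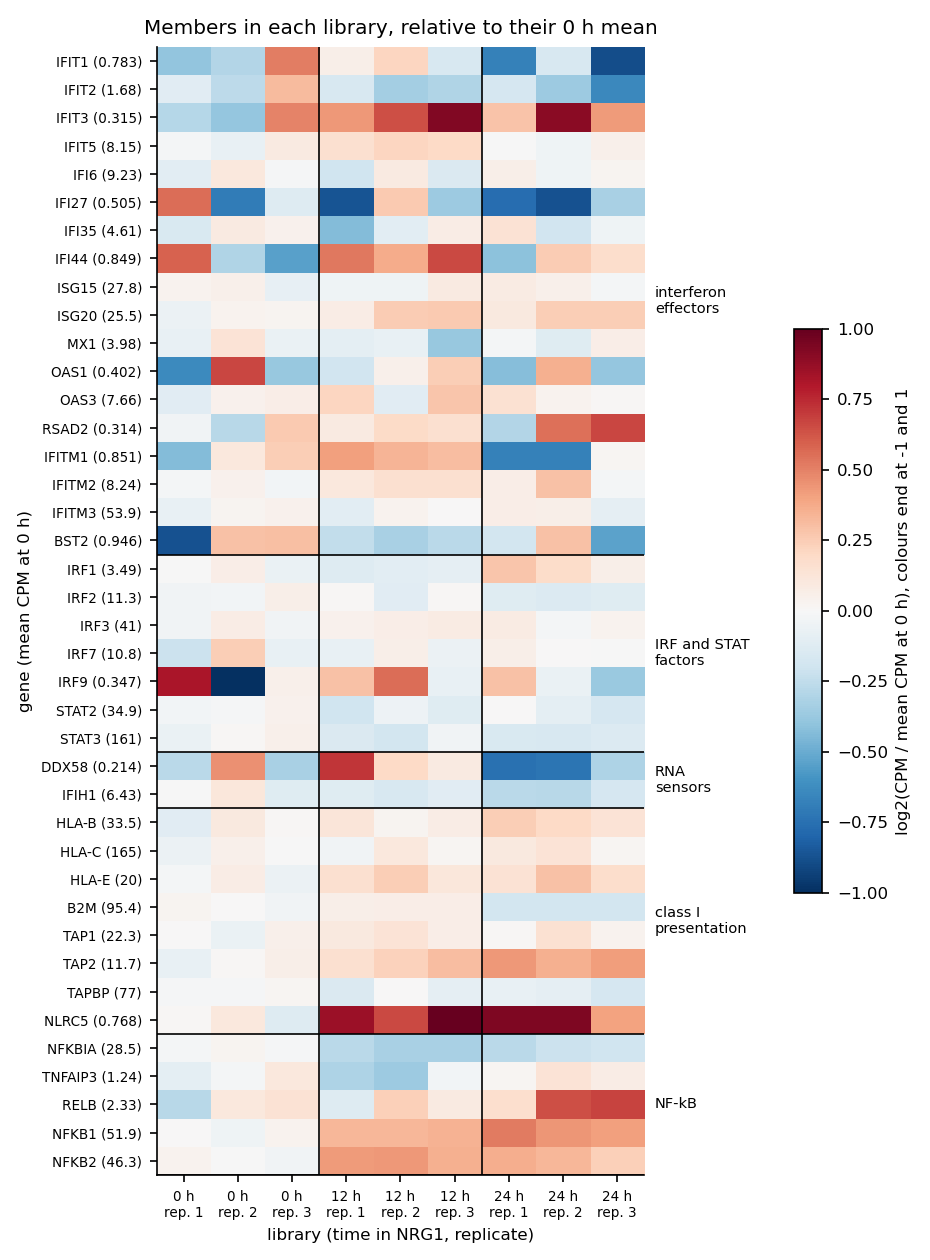
Level of each of the 40 genes in the 9 libraries, as the log2 ratio of its CPM to its mean CPM at 0 h (colour scale ending at -1 and 1), with the 0 h mean in CPM beside each symbol. Rows are grouped as interferon effectors, IRF and STAT factors, RNA sensors, class I genes and NF-kB genes. NLRC5, NFKB1 and NFKB2 are higher in all 6 treated libraries, NFKBIA is lower in all 6, and the scattered colours among the effectors lie in genes near or under 1 CPM.

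The interferon-stimulated effectors, which block viral entry, translation and replication, were nearly level as a sum over the 24 h. Their summed level was 155.7 ± 4.88 CPM at 0 h, 160.4 ± 6.87 CPM at 12 h and 160.9 ± 4.22 CPM at 24 h (SD, n = 3 each). IFITM3, ISG15 and ISG20 made up most of this sum, with 53.9, 27.8 and 25.5 CPM at 0 h. The sum therefore says little about the effectors at low levels. The median log2 fold change of the 18 tested effectors was 0.05 at 12 h and 0.01 at 24 h, where the median over all tested genes was -0.01 at both times. In each comparison with 0 h, 1 effector passed the test and 17 did not.

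ISG15, a ubiquitin-like protein attached to other proteins after interferon, was at 28.4, 28.7 and 26.2 CPM at 0 h, at 26.9, 27.0 and 29.6 CPM at 12 h and at 29.3, 28.8 and 27.4 CPM at 24 h. The 3 groups overlapped throughout. For ISG15 the log2 fold change was 0.00 at 12 h (95% interval -0.10 to 0.11) and 0.04 at 24 h (-0.07 to 0.14), so larger changes than these bounds lay outside the intervals. IFITM3, a membrane protein that blocks the fusion of viruses in endosomes, was at 53.9 ± 2.32, 53.1 ± 2.68 and 54.4 ± 3.35 CPM, with log2 fold changes of -0.02 (-0.12 to 0.07) and 0.01 (-0.08 to 0.11). IFITM3 shares near-identical stretches with 2 pseudogenes, which had 218 and 168 reads in all.

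ISG20, an exonuclease that degrades RNA, was the effector that rose. It was at 24.5, 26.1 and 25.9 CPM at 0 h, at 26.8, 30.5 and 30.5 CPM at 12 h and at 27.3, 30.3 and 30.2 CPM at 24 h. Every treated library lay above every 0 h library, and 1 library at each later time lay close to them. The log2 fold change was 0.20 at both times (95% interval 0.09 to 0.31, edgeR adjusted p 0.00872 and 0.00732), a rise of 14.8% and 14.9%. The 12 h call was lost without 12 h replicate 2 (log2 fold change 0.17) or 12 h replicate 3 (0.17), and the 24 h call was kept in every alternative.

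Other effectors with moderate levels did not pass, and several of their intervals could hold a change of the size seen for ISG20. IFI6, a small membrane protein, was at 9.23, 8.74 and 9.34 CPM (means), with log2 fold changes of -0.08 (-0.25 to 0.10) and 0.02 (-0.16 to 0.19). OAS3, a synthetase that activates RNase L, was at 7.66, 8.42 and 8.04 CPM, and IFITM2 at 8.24, 9.10 and 8.95 CPM. IFIT5, an RNA-binding protein of the IFIT family, was at 8.15 CPM at 0 h, 9.29 CPM at 12 h and 8.16 CPM at 24 h. Its log2 fold change of 0.19 at 12 h (0.03 to 0.35) did not pass, with an edgeR adjusted p of 0.102, and in libraries thinned to the smallest total it was 0.23 and passed. IFI35 was at 4.61, 4.18 and 4.54 CPM, with log2 fold changes of -0.14 (-0.40 to 0.11) and -0.03 (-0.28 to 0.23). MX1, a GTPase that traps viral particles, was at 3.98, 3.52 and 3.92 CPM. The MX1 log2 fold changes were -0.17 (-0.42 to 0.08) and -0.02 (-0.27 to 0.23). Its locus overlaps TMPRSS2 on the other strand, which had 19865 reads against 1858 of MX1 and itself fell at both times (log2 fold changes of -0.25 and -0.57), and whether reads were counted by strand is not given in the sources used here.

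The remaining effectors had low levels, though each had at least 10 counts in all 9 libraries. Means at 0 h were 1.68 CPM for IFIT2, 0.946 CPM for BST2, 0.851 CPM for IFITM1, 0.849 CPM for IFI44, 0.783 CPM for IFIT1, 0.505 CPM for IFI27, 0.402 CPM for OAS1, 0.315 CPM for IFIT3 and 0.314 CPM for RSAD2. None of these 9 passed in any comparison, and their intervals were wide, as for IFIT3 at 12 h (log2 fold change 0.68, -0.09 to 1.44) and IFI27 at 24 h (-0.63, -1.44 to 0.18). A change of the size seen for ISG20 was not detectable in these genes at this depth. Single libraries decided 2 values: IFI44 at 12 h passed without 0 h replicate 1 (log2 fold change 0.94, against 0.52 with it), and IFITM1 between 12 and 24 h passed without 24 h replicate 3 (-1.03, against -0.75). IFIT1, IFIT2 and IFIT3 overlap LIPA on the other strand, and RSAD2 overlaps CMPK2, each a gene with more reads.

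Interferons themselves and their receptors were examined as a wider list. Of 9 interferon genes listed, 0 could be tested, and the reads over all 9 libraries were 4 for IFNB1, 5 for IFNK and 12 for IFNL1. All 10 listed genes of the receptors and their signalling were tested, and 1 of them, JAK2, passed at both times. JAK1, the kinase shared by all interferon receptors and described as deficient in LNCaP cells, was at 5.18, 4.64 and 4.88 CPM at 0 h and at means of 5.35 and 5.34 CPM at 12 and 24 h. Per kb of exon this is a level of 0.372 CPM at 0 h, compared with 5.64 for TYK2 and 3.53 for JAK2. JAK1 did not pass, with a log2 fold change of 0.12 at both times (-0.09 to 0.33).

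JAK2, the kinase paired with JAK1 on the interferon gamma receptor, was at 30.4, 27.4 and 26.1 CPM at 0 h, at 19.6, 18.0 and 19.97 CPM at 12 h and at 19.7, 18.8 and 22.7 CPM at 24 h. All 6 treated libraries lay below the 0 h libraries. JAK2 changed by -0.54 on the log2 scale at 12 h (edgeR adjusted p 1.87e-07) and -0.45 at 24 h (3.17e-06). Feedback regulators of the pathway were also listed, SOCS1, SOCS3 and USP18 among them, and 0 of 8 passed in any of the 3 comparisons with edgeR or DESeq2, with 1 at an unadjusted p under 0.05 at 12 h and 0 in the other comparisons.

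The transcription factors of the pathway were present, and STAT3 was the one that fell. STAT3, which transmits signals of cytokines and growth factors, was at 154, 163 and 167 CPM at 0 h, at 146, 142 and 157 CPM at 12 h and at 145, 144 and 147 CPM at 24 h. The 12 h libraries overlapped the 0 h libraries and the 24 h libraries did not. The log2 fold change was -0.12 at 12 h (edgeR adjusted p 0.0188) and -0.15 at 24 h (0.00265), a drop of 7.98% and 9.85%. Leaving out 0 h replicate 2 (-0.11), 0 h replicate 3 (-0.09), 12 h replicate 1 (-0.11) or 12 h replicate 2 (-0.08) ended the 12 h call, and the 24 h call was kept in every alternative.

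STAT2, which joins IRF9 in the ISGF3 complex, was at 34.2, 34.5 and 35.9 CPM at 0 h, at 30.4, 33.8 and 32.1 CPM at 12 h and at 35.1, 32.6 and 31.0 CPM at 24 h. At 12 h the log2 fold change of -0.12 did not pass (edgeR adjusted p 0.092). IRF9, the DNA-binding part of that complex, was at 0.613, 0.069 and 0.360 CPM at 0 h and at means of 0.423 and 0.342 CPM at 12 and 24 h. A gene model on the same strand, with more reads than IRF9 and a stretch of identical sequence, overlaps it, so the level assigned to IRF9 is uncertain.

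IRF1, an early interferon target that activates class I genes, was at 3.48, 3.66 and 3.32 CPM at 0 h, at 3.19, 3.24 and 3.28 CPM at 12 h and at 4.22, 3.95 and 3.63 CPM at 24 h. The 24 h libraries lay above those of 12 h, and the log2 fold change of 0.28 between these times did not pass (95% interval 0.03 to 0.53, edgeR adjusted p 0.201). IRF2, a repressor of interferon targets, was at 11.1, 11.1 and 11.8 CPM at 0 h, at 11.4, 10.5 and 11.4 CPM at 12 h and at 10.4, 10.3 and 10.4 CPM at 24 h. Its 24 h libraries lay below the others, and its log2 fold changes of -0.03 and -0.13 against 0 h did not pass.

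IRF3, activated by the sensors of viral RNA, was at 40.02, 43.1 and 39.9 CPM at 0 h, at 42.3, 42.9 and 43.5 CPM at 12 h and at 43.3, 40.5 and 42.1 CPM at 24 h. IRF7, which amplifies interferon production, was at 9.26, 12.8 and 10.2 CPM at 0 h, at 10.2, 11.2 and 10.3 CPM at 12 h and at 11.2, 10.8 and 10.7 CPM at 24 h. The groups of both overlapped, and neither passed. IRF3 overlaps BCL2L12, an opposite-strand gene with 39.2% of its reads, and IRF1 overlaps IRF1-AS1, which had 75.1%. The median of the 7 factors was -0.03 at 12 h and -0.04 at 24 h.

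Of the RNA sensors, DDX58 (RIG-I) was at 0.214, 0.275 and 0.143 CPM (means at 0, 12 and 24 h), near the limit of detection. IFIH1 (MDA5), which senses long double-stranded RNA, was at 6.40, 6.97 and 5.93 CPM at 0 h, at 5.93, 5.77 and 5.95 CPM at 12 h and at 5.33, 5.30 and 5.74 CPM at 24 h. The 24 h libraries lay below the 0 h libraries, and the log2 fold change of -0.24 (-0.44 to -0.04) did not pass, with an edgeR adjusted p of 0.0812. In the wider list of nucleic acid sensing and relay, 11 of 13 genes were tested. MAVS, the mitochondrial adaptor of both sensors, fell at 12 h (-0.13) and at 24 h (-0.12). ADAR, which edits double-stranded RNA, fell at 24 h (-0.13), and TRAF3, an adaptor downstream of MAVS that also restrains the non-canonical NF-kB pathway, rose at 24 h (0.22). The 24 h call of MAVS was lost without 24 h replicate 2 (-0.10), and that of ADAR without 0 h replicate 3 (-0.09).

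The wider list of other interferon-stimulated genes had 32 of 42 genes tested. At 12 h 5 of them passed (3 higher, 2 lower), and at 24 h 6 passed (4 higher, 2 lower), which is 15.6% and 18.8% of the list and near the background in both comparisons. The 12 h count was 3, all higher, without 0 h replicate 3. The median log2 fold change was 0.05 and 0.03. GBP2, a guanylate-binding protein, was the gene of this list past both thresholds. It was at 1.16, 0.828 and 1.40 CPM at 0 h, at 1.85, 2.76 and 2.71 CPM at 12 h and at 2.09, 2.48 and 2.71 CPM at 24 h. Every treated library exceeded the 0 h libraries, and the log2 fold change was 1.10 at both times (edgeR adjusted p 7.36e-05 and 6.12e-05). TRIM14 (0.28 and 0.19) and LAP3 (0.16 and 0.13) also rose at both times. GBP1, CXCL10 and CXCL11, which interferon gamma induces in many cells, had 29, 7 and 17 reads in all 9 libraries and were under the filter.

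**Figure D2:**
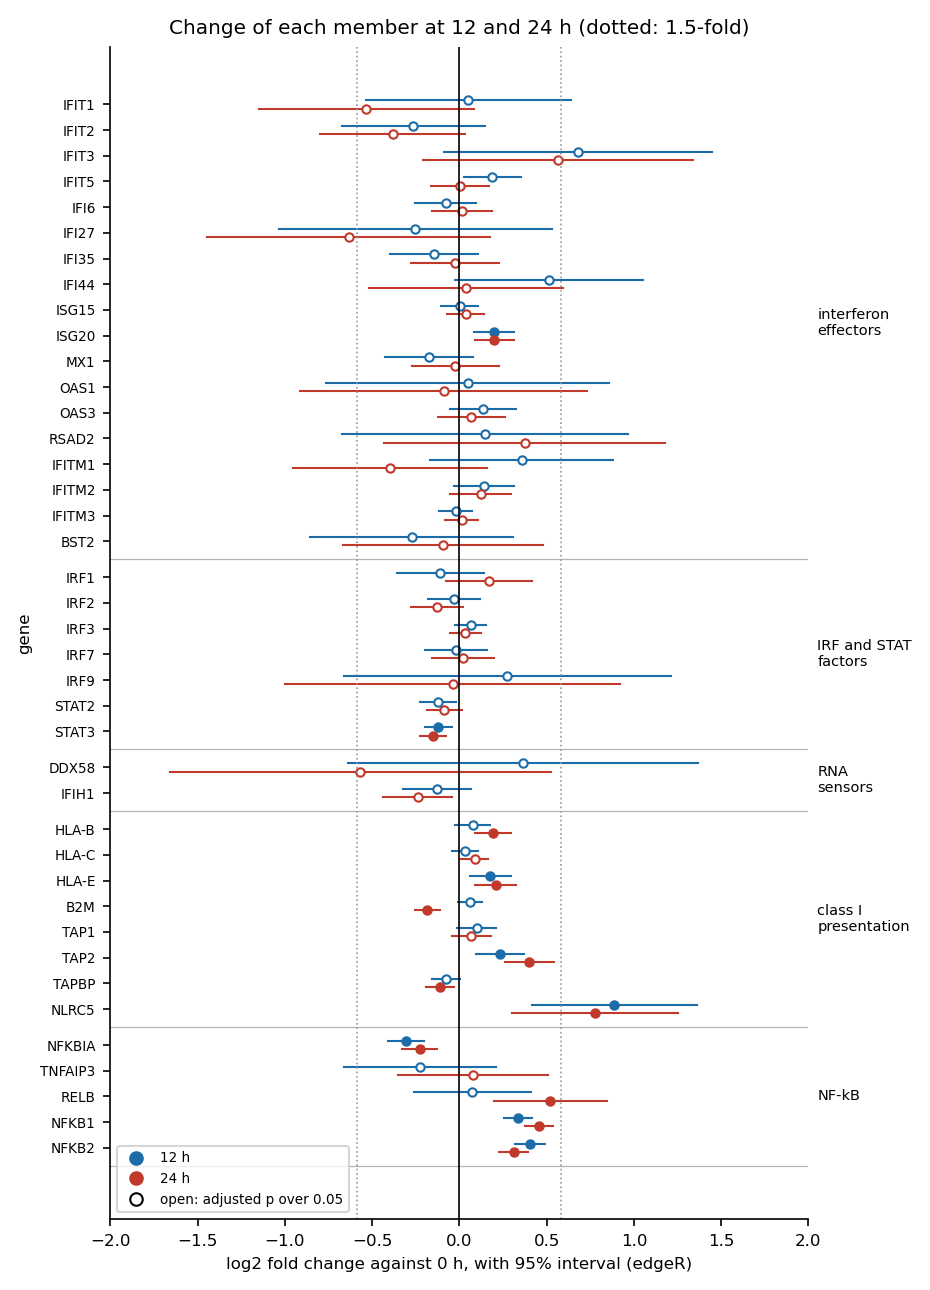
Log2 fold change of each of the 40 genes at 12 h (blue) and 24 h (red) against 0 h with its 95% interval from edgeR, filled where the adjusted p was at most 0.05, with dotted lines at 1.5-fold. Filled points stand mostly among the class I and NF-kB genes, and NLRC5 is the gene whose filled points lie beyond the dotted line at both times.

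The class I antigen presentation genes changed in both directions and by small amounts. At 12 h 3 of 8 passed the test, all higher, against 18.7% of all tested genes (10.6% higher, 8.16% lower). At 24 h 6 of 8 passed, 4 higher and 2 lower, against 21.1% (11.6% higher, 9.48% lower). Single libraries moved these counts, to 1 at 12 h without 0 h replicate 1 and to 3 at 24 h (2 higher, 1 lower) without 24 h replicate 2. The median log2 fold change was 0.09 at 12 h and 0.14 at 24 h. The summed level was 425.7 ± 8.51, 438.3 ± 12.5 and 432.2 ± 12.0 CPM, with libraries that overlapped between the 3 times.

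NLRC5, the transactivator of class I genes, had the largest change of the 40 genes among those that passed. It was at 0.774, 0.828 and 0.702 CPM at 0 h, at 1.39, 1.21 and 1.67 CPM at 12 h and at 1.47, 1.47 and 1.02 CPM at 24 h. Every treated library exceeded every 0 h library. NLRC5 rose by a log2 fold change of 0.89 at 12 h (95% interval 0.41 to 1.36, edgeR adjusted p 0.00535) and 0.78 at 24 h (0.30 to 1.25, 0.0144), or 1.85-fold and 1.71-fold, from a low level. Leaving out 0 h replicate 3 (0.72), 24 h replicate 1 (0.70) or 24 h replicate 2 (0.69) ended the 24 h call, and the 12 h call on the adjusted p was kept in every alternative.

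TAP2, a subunit of the peptide transporter, was at 11.1, 11.8 and 12.2 CPM at 0 h, at 13.01, 13.7 and 14.5 CPM at 12 h and at 15.7, 14.9 and 15.6 CPM at 24 h. The 3 groups did not overlap. TAP2 rose by 0.23 on the log2 scale at 12 h (edgeR adjusted p 0.0137) and 0.40 at 24 h (2.49e-05), a rise of 17.5% and 32.1%. The 12 h call was lost without 0 h replicate 1 (0.20) or 12 h replicate 3 (0.20). The further difference of TAP2 between 12 and 24 h, 0.17, did not pass (edgeR adjusted p 0.152). TAP1, the other subunit, was at 22.3 ± 0.914, 23.9 ± 0.616 and 23.4 ± 1.19 CPM, with log2 fold changes of 0.10 (-0.01 to 0.21) and 0.07 (-0.04 to 0.18), and did not pass.

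Among the heavy chains, HLA-B was at 30.9, 35.7 and 33.8 CPM at 0 h, at 36.4, 34.2 and 35.2 CPM at 12 h and at 39.6, 38.5 and 36.7 CPM at 24 h. The 24 h libraries lay above all others. The log2 fold change was 0.08 at 12 h, which did not pass, and 0.19 at 24 h (edgeR adjusted p 0.00398), a rise of 14.4%. HLA-E, which presents leader peptides to natural killer cells, was at 20.03 ± 0.999, 22.6 ± 1.01 and 23.1 ± 1.28 CPM, and rose by 0.18 at 12 h (edgeR adjusted p 0.0283) and 0.21 at 24 h (0.00757) on the log2 scale. For HLA-E, leaving out 0 h replicate 1 (0.17), 0 h replicate 3 (0.15), 12 h replicate 1 (0.19) or 12 h replicate 2 (0.14) ended the 12 h call, and leaving out 24 h replicate 2 (0.16) ended the 24 h call.

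HLA-C had the highest level per kb of exon among the class I genes described, with 65.9 CPM per kb at 0 h compared with 30.6 for B2M and 7.24 for HLA-B. It was at 159, 171 and 165 CPM at 0 h, at 162, 178 and 167 CPM at 12 h and at 177, 182 and 167 CPM at 24 h. The groups overlapped. Its log2 fold change of 0.09 at 24 h (0.01 to 0.16, edgeR adjusted p 0.102) did not pass, but it did without 0 h replicate 2 (0.12) or 24 h replicate 3 (0.12). The heavy chain genes are similar to one another and vary between people, and how reads that map to several of them were counted is not given in the sources used here.

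B2M, the light chain common to all class I molecules, fell at 24 h, when HLA-B and HLA-E rose. It was at 97.3, 95.9 and 93.0 CPM at 0 h, at 99.2, 99.8 and 99.7 CPM at 12 h and at 83.9, 84.0 and 84.1 CPM at 24 h. The 24 h libraries lay below all others and had an SD of 0.108 CPM. The log2 fold change was 0.06 at 12 h (-0.01 to 0.13), which did not pass, and -0.18 at 24 h (-0.25 to -0.11, edgeR adjusted p 9.84e-05). Against 12 h the 24 h value was lower by -0.25 (-0.32 to -0.18, edgeR adjusted p 5.71e-06), a drop of 15.6%, and both calls were kept in every alternative. TAPBP (tapasin), which holds class I molecules at the transporter, was at 77.0 ± 0.846, 73.1 ± 3.80 and 71.3 ± 2.48 CPM. Its log2 fold change of -0.11 at 24 h passed narrowly (edgeR adjusted p 0.0439), and it was lost in 11 of 17 alternatives, DESeq2 (-0.11) among them. These included the fits without any 1 of the 0 h libraries (-0.11, -0.11 and -0.10 without replicates 1, 2 and 3), any 1 of the 24 h libraries (-0.13, -0.12 and -0.08) or 12 h replicate 1 (-0.10) or 3 (-0.11).

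In the wider list of class I pathway genes, 17 of 19 were tested. At 12 h 6 passed (35.3%), 3 in each direction, and at 24 h 7 passed (41.2%), 4 higher and 3 lower. The share of all tested genes was 18.7% and 21.1%. The median log2 fold change of the list was -0.01 at both times. The genes that fell encode chaperones of the endoplasmic reticulum that fold class I and many other glycoproteins. CALR (calreticulin) had log2 fold changes of -0.26 and -0.34, CANX (calnexin) of -0.13 and -0.17, and PDIA3 of -0.09 and -0.22. The 12 h call of PDIA3 was lost in the 6 fits without 0 h replicate 2 (-0.08) or 3 (-0.07), 12 h replicate 1 (-0.09) or 3 (-0.07), or 24 h replicate 1 (-0.09) or 2 (-0.09). The genes that rose at both times were HLA-F, MICA, a stress-induced ligand of natural killer cells (0.40 and 0.33), and the proteasome activator subunit PSME3 (0.13 and 0.14).

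HLA-F, a non-classical heavy chain, passed both thresholds. It was at 1.02, 0.966 and 0.976 CPM at 0 h, at 1.501, 1.76 and 1.32 CPM at 12 h and at 1.68, 1.56 and 1.42 CPM at 24 h. Every treated library exceeded the 0 h libraries, with log2 fold changes of 0.63 (edgeR adjusted p 0.0275) and 0.65 (0.0197). Leaving out 0 h replicate 2 (0.62), 0 h replicate 3 (0.63), 12 h replicate 1 (0.65) or 12 h replicate 2 (0.52), or testing all genes with a count (0.63), ended the 12 h call, and the 24 h call went without 0 h replicate 2 (0.64) or 24 h replicate 1 (0.60). The immunoproteasome subunits PSMB8 and PSMB9, which interferon gamma induces, were at 0.238 and 0.404 CPM at 0 h and did not pass.

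The 10 listed class II genes, which are normally restricted to antigen-presenting cells, summed to means of 29.65, 28.05 and 27.9 CPM at 0, 12 and 24 h. Of 8 tested, 1 passed at 12 h (12.5%) and 3 at 24 h (37.5%), all lower. Of all tested genes, 18.7% and 21.1% passed at these times, 8.16% and 9.48% lower. The 12 h call, HLA-DMB, was lost without 12 h replicate 3 (-0.40). At 24 h, leaving out 0 h replicate 3 (-0.22), 24 h replicate 2 (-0.22) or 24 h replicate 3 (-0.20) ended the call of HLA-DMA, and leaving out 24 h replicate 1 (-0.35) that of HLA-DMB. CIITA, the class II transactivator and a relative of NLRC5, was at 2.03, 1.95 and 1.82 CPM at 0 h, at 1.46, 1.495 and 1.34 CPM at 12 h and at 1.34, 1.29 and 1.19 CPM at 24 h. All treated libraries lay below the 0 h libraries. For CIITA the log2 fold change was -0.43 at 12 h, which did not pass (edgeR adjusted p 0.101), and -0.60 at 24 h (0.0163), a call lost without 0 h replicate 1 (-0.56) or 24 h replicate 3 (-0.56) and in libraries thinned to the smallest total (-0.50). CD74, the invariant chain, had 37 reads in all.

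**Figure D3:**
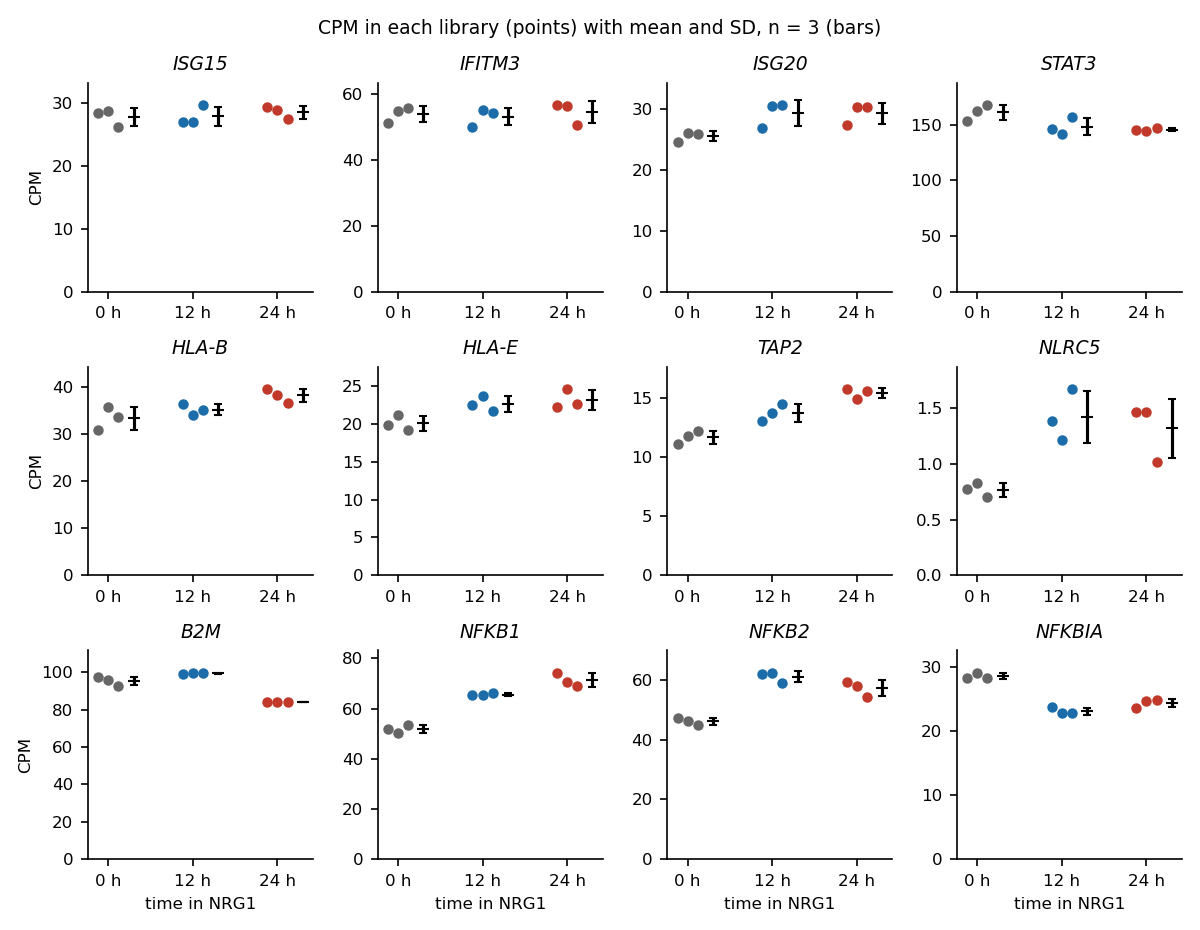
CPM of 12 genes in each library (points, 0 h grey, 12 h blue, 24 h red) with the mean and SD of the 3 libraries beside them, on axes that start at 0. ISG15 and IFITM3 stay level, NFKBIA steps down, and B2M is lowest at 24 h, with 84.0 CPM. TAP2 and NFKB1 are higher later with no overlap between times, and neither passed the test between 12 and 24 h.

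Among the NF-kB genes, NFKB1 and NFKB2 rose and the inhibitor gene NFKBIA fell at both times. Of 5 genes, 3 passed at 12 h (2 higher, 1 lower) and 4 at 24 h (3 higher, 1 lower). Between 12 and 24 h 0 passed with edgeR or DESeq2, with 3 at an unadjusted edgeR p under 0.05. The share of all tested genes was 18.7%, 21.1% and 6.08% in these 3 comparisons, and 0 of 5 is near the last. The median log2 fold change of the 5 genes was 0.07 at 12 h and 0.31 at 24 h. NFKB1, the precursor of p50, was at 52.0, 50.4 and 53.3 CPM at 0 h, at 65.3, 65.3 and 66.2 CPM at 12 h and at 74.3, 70.7 and 68.9 CPM at 24 h. The 3 groups did not overlap. NFKB1 rose by 0.34 on the log2 scale at 12 h (edgeR adjusted p 3.49e-08) and 0.46 at 24 h (1.8e-11), a rise of 26.4% and 37.3%. The further difference of 0.12 between 12 and 24 h did not pass (edgeR adjusted p 0.0605). It did without 0 h replicate 1 (0.12) or 24 h replicate 3 (0.14), with no scaling factor (0.13) and in a fit of the 6 libraries compared (0.12).

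NFKB2, the precursor of p52, was at 47.4, 46.3 and 45.2 CPM at 0 h, at 62.2, 62.5 and 59.1 CPM at 12 h and at 59.6, 58.2 and 54.5 CPM at 24 h. The treated libraries all lay above those at 0 h, and the later groups overlapped. NFKB2 rose by 0.40 on the log2 scale at 12 h (edgeR adjusted p 2.46e-09) and 0.31 at 24 h (4.56e-07). RELB, the partner of p52, was at 1.92, 2.502 and 2.57 CPM at 0 h, at 2.13, 2.74 and 2.48 CPM at 12 h and at 2.62, 3.64 and 3.72 CPM at 24 h. For RELB the log2 fold change was 0.07 at 12 h, which did not pass, and 0.52 at 24 h (0.20 to 0.84, edgeR adjusted p 0.016). Leaving out 0 h replicate 1 (0.40), 24 h replicate 2 (0.45) or 24 h replicate 3 (0.44) ended that call. The difference of RELB between 12 and 24 h, 0.45, passed without 24 h replicate 1 (0.59) and not otherwise.

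NFKBIA, the inhibitor that retains NF-kB in the cytoplasm, was at 28.2, 29.1 and 28.3 CPM at 0 h, at 23.7, 22.8 and 22.7 CPM at 12 h and at 23.6, 24.6 and 24.8 CPM at 24 h. All 6 treated libraries lay below the 0 h libraries. For NFKBIA the log2 fold change was -0.31 at 12 h (edgeR adjusted p 1.89e-05) and -0.23 at 24 h (0.000748), a drop of 19.1% and 14.6%. TNFAIP3, which encodes the inhibitor A20, was at 1.24 ± 0.0883, 1.06 ± 0.137 and 1.31 ± 0.0518 CPM and did not pass (log2 fold changes of -0.23 and 0.08). It overlaps WAKMAR2, an opposite-strand gene with 33.3% of its reads that rose at both times. The calls of NFKB1, NFKB2 and NFKBIA against 0 h were kept in every alternative.

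In the wider list of NF-kB pathway genes, 20 of 29 were tested, and 4 passed at each time (3 higher, 1 lower), or 20%, close to the background. The 12 h count was 2 without 12 h replicate 1, when MAP3K14 and TNFAIP2 lost their calls, and 3 without 0 h replicate 3. RELA, which encodes the p65 subunit, was at 83.4, 86.1 and 86.5 CPM at 0 h, at 88.4, 89.9 and 90.6 CPM at 12 h and at 82.9, 86.0 and 85.2 CPM at 24 h. Neither log2 fold change passed (0.07 and -0.01). BIRC2, a ubiquitin ligase of the TNF receptor complex, rose by 0.21 and 0.27 on the log2 scale. SOD2, a mitochondrial enzyme that NF-kB induces in many cells, had log2 fold changes of -0.23 and -0.29 and fell at both times. The inflammatory targets of the list were at very few reads, with 25 for ICAM1, 17 for CXCL8, 7 for CCL2 and 3 for TNF over the 9 libraries.

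TNFAIP2, a TNF-induced gene, was the gene of that list past both thresholds. It was at 1.68, 1.55 and 1.32 CPM at 0 h, at 2.63, 1.97 and 2.11 CPM at 12 h and at 2.60, 2.72 and 2.30 CPM at 24 h. The treated libraries exceeded those at 0 h. TNFAIP2 rose by a log2 fold change of 0.56 at 12 h (edgeR adjusted p 0.0199) and 0.74 at 24 h (0.00136). The 12 h call was lost without 0 h replicate 3 (0.47) or 12 h replicate 1 (0.43).

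**Figure D4:**
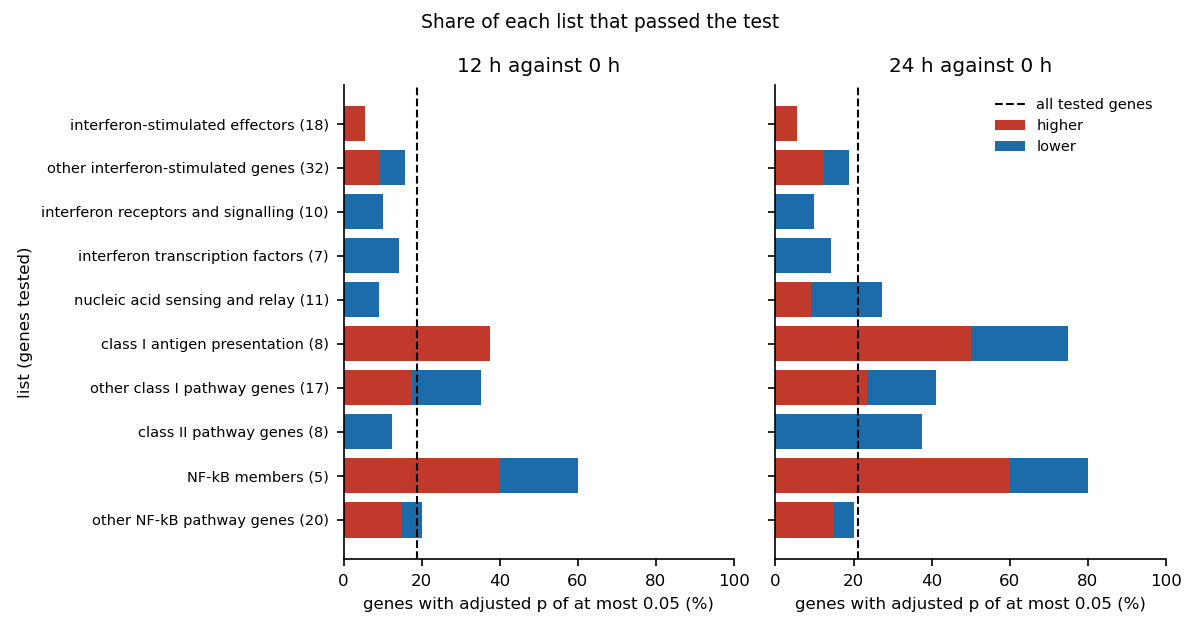
Share of the tested genes of each list that passed the test, higher (red) and lower (blue), at 12 h and at 24 h against 0 h, with the share of all tested genes as a dashed line at 18.7% and 21.1% and the number of genes tested in parentheses. The interferon effector bars (5.56%) end left of the dashed line, whereas those of the 8 class I genes (37.5% and 75.0%) and the 5 NF-kB genes (60.0% and 80.0%) pass it. Without 24 h replicate 2 the class I share at 24 h was 37.5%, and without 0 h replicate 1 that at 12 h was 12.5%.

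Against 0 h, ISG20, HLA-E, TAP2, NLRC5, NFKB1 and NFKB2 rose and STAT3 and NFKBIA fell at both 12 and 24 h. Of these, NFKB1, NFKB2 and NFKBIA kept both calls in every alternative, and the others did not. HLA-B and RELB rose, and B2M and TAPBP fell, at 24 h and did not pass at 12 h. The 24 h call of TAPBP was lost in 11 of 17 alternatives, DESeq2 among them, and that of RELB in 3. Those of HLA-B and B2M were kept in every alternative. For B2M the difference between 12 and 24 h itself passed, and for the other 3 genes it did not, so it was not shown that their 12 h and 24 h effects differ.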

How the data were processed

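RNA of LNCaP cells at 0, 12 and 24 h after NRG1 was sequenced as read pairs from mRNA libraries. Per the study's methods, the authors trimmed adapters with Cutadapt, used STAR for alignment to GRCh38 and featureCounts with GENCODE 38 to obtain gene counts. The authors deposited these as whole-number counts in 1 column per library, without normalization or pooling. The table also held 14 empty columns. The strand setting is not given in the sources used here. The methods state that 1 LNCaP replicate at time 0 was left out, without naming the experiment, and the study gives 3 replicates for its NRG1 libraries; all 3 of the 0 h libraries entered the fit, and leaving out each is an alternative. Depth was 47016302 to 60985825 counts per library, a precision that concerns counting error alone.

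Sample titles gave the groups and replicate numbers, with 3 libraries per time. The fit covered the whole table: filterByExpr kept 19250 genes, libraries were scaled by TMM, and edgeR 4.0.16 (R 4.3.3, limma 3.58.1) fitted a robust quasi-likelihood model to all 9 libraries without covariates. P-values were adjusted by Benjamini-Hochberg over all tested genes. The study's methods used DESeq2 with thresholds of 0.05 and 1.5-fold; DESeq2 1.42.0 was an alternative. The others were size factors or no scaling, other filters, libraries thinned to the smallest total, only the compared libraries, the replicate block, other fold thresholds and each library left out. Intervals are 95% intervals of the fitted change. CPM per kb divides by the exon length in GENCODE 44. The methods were tested on simulated counts.

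The 43 members and the wider lists, written from general knowledge, were chosen with earlier results of these data known. Values in every library are given for members past both thresholds, in each group the 2 largest changes that passed, the IRF and STAT factors, HLA-B, HLA-C, B2M and NFKBIA, and, of the wider lists, up to 3 genes past both thresholds plus JAK1 and RELA. Some genes that meet these rules are not reported here. Other genes with such values (ISG15, NFKB2, JAK2 and IFIH1) and other genes of the wider lists were named after their values were seen. Overlapping genes were read from the table's coordinates: 21 members overlap another gene, 9 of them one with over 10% of their reads. Near-identical copies (BLAST 2.17.0, at least 95% identity over 150 bases between transcripts) were found for 8 members: DDX58, HLA-B, IFITM1, IFITM3, IRF9, OAS1, TAP2 and TAPBP. Libraries of a group differed beyond sampling noise (chi-square over degrees of freedom of at least 3.15), so all were counted separately.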

Additional observations from a re-analysis of the deposited data

Results flagged for a closer look

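Of the members and wider lists, 5 genes are given here because the edgeR comparison between 12 and 24 h called them. They are 1 of 40 members (2.5%) and 4 of 106 wider genes (3.77%), against 6.08% of all tested genes. B2M was lower at 24 h than at 12 h, by a log2 fold change of -0.25, and TRAF3 was higher, by 0.15. Both kept this call in all 17 alternatives. HERC6, an interferon-stimulated ubiquitin ligase, was lower by -0.30. It lost the call with DESeq2 (-0.30) and without 12 h replicate 1 (-0.30), 12 h replicate 2 (-0.29), 12 h replicate 3 (-0.32), 24 h replicate 2 (-0.27) or 24 h replicate 3 (-0.29). PDIA3 was lower by -0.13, a call lost without 12 h replicate 2 (-0.11) or 24 h replicate 1 (-0.12). TNIP1, which binds the inhibitor A20, was lower by -0.12. Leaving out 12 h replicate 1 (-0.11), 12 h replicate 2 (-0.13), 12 h replicate 3 (-0.12), 24 h replicate 2 (-0.13) or 24 h replicate 3 (-0.10) ended the call.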

How the results depend on the processing

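Of the 120 member values (40 genes in 3 comparisons), 21 passed the test, and 13 of these passed under every alternative run. Of the 99 that did not pass, 93 passed under none, and 0 values reversed their sign after passing. The number of members passing the test was 8 at 12 h and 12 at 24 h against 0 h. It stayed within 1.5 times these counts under every alternative apart from the fits without 1 library, which gave 5 to 8 (5 without 12 h replicate 2) and 8 to 12. Between 12 and 24 h the count was 1, with no scaling factor 2, with only the 6 libraries compared 2, and without 1 library 1 to 3. The count past both thresholds, 1 at 12 h and 1 at 24 h, was 0 at both times with a fold of at least 2 and 0 with glmTreat against a fold of 1.5. Without 1 library it was 1 to 2 at 12 h (2 without 0 h replicate 1) and 0 to 1 at 24 h (0 without 24 h replicate 2), and between 12 and 24 h it was 0, with 0 to 1 without 1 library. The F test count of 11 ranged from 9 to 12. The replicate numbers did not pair the libraries: 0 of 9 same-numbered pairs had deviations correlated over 0.1 (-0.0367 to 0.0295), and with the replicate block 8, 12 and 1 members passed the test in the 3 comparisons, as without it. The median of all genes moved by at most 0.02 under any scaling. Genes under about 1 CPM are limited by depth.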
